A study of Homo sapiens with 8 samples.

Results

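EGR1, EGR2, EGR3, EGR4, IER2, IER3 and IER5 were followed as a family of immediate early genes. They are 7 of the 20033 protein-coding genes in the GENCODE release 44 annotation of hg38 and were taken by name. For each gene, every peak of acetylated histone H3 lysine 27 (H3K27ac, a mark of active promoters and enhancers) in the gene and its 50 kb flanks was collected from 4 peak lists. The cells were pancreatic progenitors (PPs) derived from MEL1, a single established human embryonic stem cell line, which the study's methods give as an INS GFP/W reporter line. All were cultured in EF6, which is DMEM with B27, EGF, bFGF and 616452, an inhibitor of the TGFβ receptor. One group received the solvent DMSO and the other 1 μM I-BET151, an inhibitor of the BET bromodomain proteins that bind acetylated lysines, for 7 days. Each group had 2 H3K27ac libraries with a peak list each, and the matched input libraries entered only through the peak caller. The labels do not say whether replicates were separate cultures, so the spread between them may be technical.

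Immediate early genes are transcribed within minutes of a growth factor signal, without new protein synthesis. Kinases of the MAPK pathway phosphorylate ternary complex factors of the ETS family, which bind DNA together with serum response factor (SRF) at CArG boxes. EGR1 to EGR4 encode zinc finger transcription factors that bind the same GC-rich element, and the corepressors NAB1 and NAB2 restrain EGR1, EGR2 and EGR3. IER2, IER3 and IER5 encode small proteins without that zinc finger. IER3 is known as a regulator of survival and of MAPK and NF-kB signalling, and IER5 as a partner of heat shock factor HSF1. EGF and bFGF, which both signal through MAPK, were present in the medium of both groups.

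The promoters of EGR1 and EGR2 are shown because their CArG boxes, where SRF can bind, lay at the edge of or inside the acetylated stretches described next. CArG boxes are in capitals and the gene strand is given 5′ to 3′. The proximal sequences are from the RefSeq promoter table (GRCh38.p14) and the distal one from the hg38 genome. The EGR1 proximal promoter is chr5:138465229-138465478 on the plus strand, the EGR1 distal promoter is chr5:138464979-138465228 on the plus strand, and the EGR2 promoter is chr10:62816374-62816616 on the minus strand.
EGR1 distal promoter: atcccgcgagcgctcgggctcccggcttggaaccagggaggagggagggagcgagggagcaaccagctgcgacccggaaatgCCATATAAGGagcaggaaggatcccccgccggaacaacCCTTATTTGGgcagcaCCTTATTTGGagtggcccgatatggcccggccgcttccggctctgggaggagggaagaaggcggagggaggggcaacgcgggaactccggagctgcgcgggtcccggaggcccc
EGR1 proximal promoter: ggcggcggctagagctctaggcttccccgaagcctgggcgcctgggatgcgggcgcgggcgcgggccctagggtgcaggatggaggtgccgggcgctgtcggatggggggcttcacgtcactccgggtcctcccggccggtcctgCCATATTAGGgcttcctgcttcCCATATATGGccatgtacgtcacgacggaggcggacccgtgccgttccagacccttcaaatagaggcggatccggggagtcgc
EGR2 promoter: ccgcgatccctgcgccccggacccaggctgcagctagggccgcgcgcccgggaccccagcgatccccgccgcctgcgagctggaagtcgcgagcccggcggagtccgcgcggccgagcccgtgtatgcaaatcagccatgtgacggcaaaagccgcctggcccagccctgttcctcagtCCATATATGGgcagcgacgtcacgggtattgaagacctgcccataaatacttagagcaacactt
EGR1 had 5 CArG boxes in the 500 bases before its start, and EGR2 had 1 in the 250 bases before its start. Numbering back from the start, the EGR1 boxes lay at −418 to −409, −380 to −371, −364 to −355, −105 to −96 and −83 to −74. Among 34788 promoters of 250 bases in the table, 1.17% held a CArG box and 0.0316% held 2 or more, as EGR1 did. The 250-base promoters of EGR4, IER2 and IER5 held none.

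The lists held 13606 and 14248 peaks over 9.91 and 9.87 Mb in DMSO, against 12887 and 12312 peaks over 9.19 and 8.62 Mb in I-BET151. Both I-BET151 lists were thus shorter genome-wide than both DMSO lists. The ChIP depth worked out from them was 7.96 and 9.84 M reads in DMSO and 7.76 and 8.04 M in I-BET151 (M, the SI prefix mega). In every library 9 of 10 markers of pancreatic progenitors, among them PDX1, NKX6-1 and SOX9, had a peak summit within 3 kb of the start, and PTF1A had none. None of 6 endocrine markers had one. LIN28A was the 1 of 6 pluripotency markers with a peak, 1 to 2 of 5 hepatic markers had one (APOA1, and SERPINA1 in all libraries but I-BET151 replicate 2), and 0 to 1 of 5 mesenchyme markers did (PDGFRB in DMSO replicate 2). A missing peak means that no interval passed the caller's threshold, not that acetylation was absent.

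H3K27ac cover was lower in both I-BET151 libraries than in both DMSO libraries at EGR1 and IER5, higher in both at IER3, and overlapping between groups at EGR2, EGR3 and IER2. EGR4 had no peak. Cover here is the length occupied by peaks over the gene and its 50 kb flanks. Across all 15190 genes with a peak in their window, cover was lower in both I-BET151 libraries for 44.4% and higher in both for 12.5%. The 6 genes with a peak thus held 2 that were lower and 1 that was higher. The median difference, I-BET151 minus DMSO, was −0.215 kb over these 6 genes and −0.094 kb over all 15190. With 2 libraries per group there are 6 ways to assign the labels, so the exact permutation test (two-sided) can give no p below 0.33, and EGR1, IER3 and IER5 each gave 0.33.

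**Figure D1:**
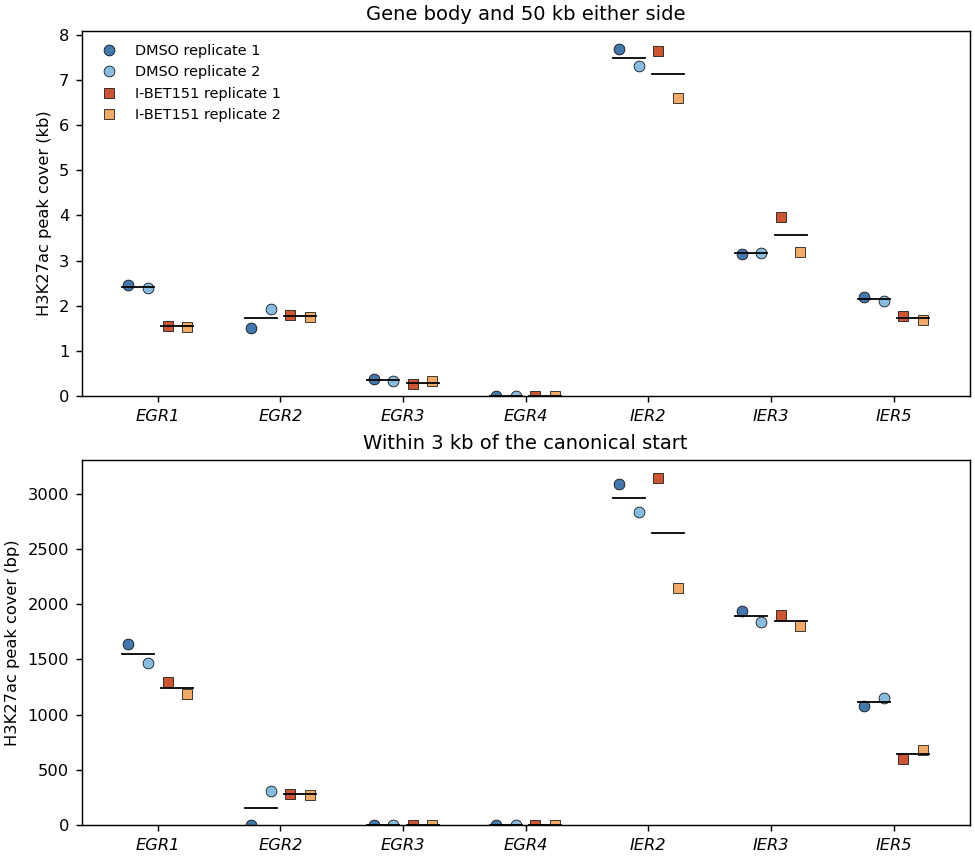
Length covered by H3K27ac peaks at each gene, over the gene and its 50 kb flanks (upper panel, kb) and within 3 kb of the canonical start (lower panel, bp), with 1 point per library and a line at each group's mean. EGR1 and IER5 sit lower in both I-BET151 libraries in both panels, and EGR4 is at 0 throughout.

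EGR1 (chr5:138465479-138469303, plus strand), the best studied of the growth-factor-induced EGR factors, had 2.461 and 2.383 kb of cover in DMSO, against 1.546 and 1.533 kb in I-BET151. The groups did not overlap, with means of 2.42 ± 0.0552 kb and 1.54 ± 0.00919 kb (SD, n = 2 each) and a ratio of 0.636. All of this cover lay in 2 regions, where a region is the union of overlapping peaks of the 4 libraries. One spanned the promoter and the other lay in intergenic sequence 26921 bp downstream of the start. The difference of −0.883 kb was −0.311 kb with flanks of 10 kb, which leave the second region out.

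The distal EGR1 region, chr5:138491739-138492667, showed the larger difference. Peaks covered 822 and 918 bp of it in DMSO, against 255 and 343 bp in I-BET151, a ratio of 0.344. Summit reads, the ChIP reads at the peak summit per M of ChIP depth, were 29.4 and 25.3 in DMSO and 15.3 and 15.7 in I-BET151. Fold enrichment over the local input, as the peak caller gave it, was 5.32 and 6.19 in DMSO and 3.40 and 2.85 in I-BET151. All 3 measures were therefore lower in both I-BET151 libraries, as in 8.63% of the 9686 regions called in all 4 libraries with reads worked out. The local input level at the summit was 52.2 and 41.5 times the input's genome-wide level in DMSO and 45.5 and 56.9 times in I-BET151, which overlapped.

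Ranked by significance within its own list, from the strongest peak at 0% to the weakest at 100%, the distal EGR1 peak stood at 43.3% and 43.0% in DMSO and at 84.6% and 93.7% in I-BET151. It thus stood near the middle of the DMSO lists and near the end of the I-BET151 lists. Of regions called in all 4 libraries, 1.22% had a more negative difference in covered length and 1.54% a more negative log2 difference in summit reads (−0.81). The peaks were shorter on both sides in I-BET151, more so on the side facing the gene: that edge lay 26367 and 26260 bp from the start in DMSO, against 26829 and 26756 bp in I-BET151. The far edge lay at 27188 and 27177 bp in DMSO, against 27083 and 27098 bp in I-BET151. No transcription start lay near the region, the closest gene of any kind being the pseudogene RPL7P19 at 18656 bp. The 201 bases at its centre, chr5:138492300-138492500 on the plus strand of hg38, are shown because nearly all of them lay under a peak in every library. They hold none of the 8 motifs searched, so nothing is capitalised.
EGR1 distal region: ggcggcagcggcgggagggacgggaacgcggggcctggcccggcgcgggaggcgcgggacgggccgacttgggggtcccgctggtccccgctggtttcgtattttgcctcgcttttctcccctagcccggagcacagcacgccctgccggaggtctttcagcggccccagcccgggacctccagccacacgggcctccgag

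**Figure D2:**
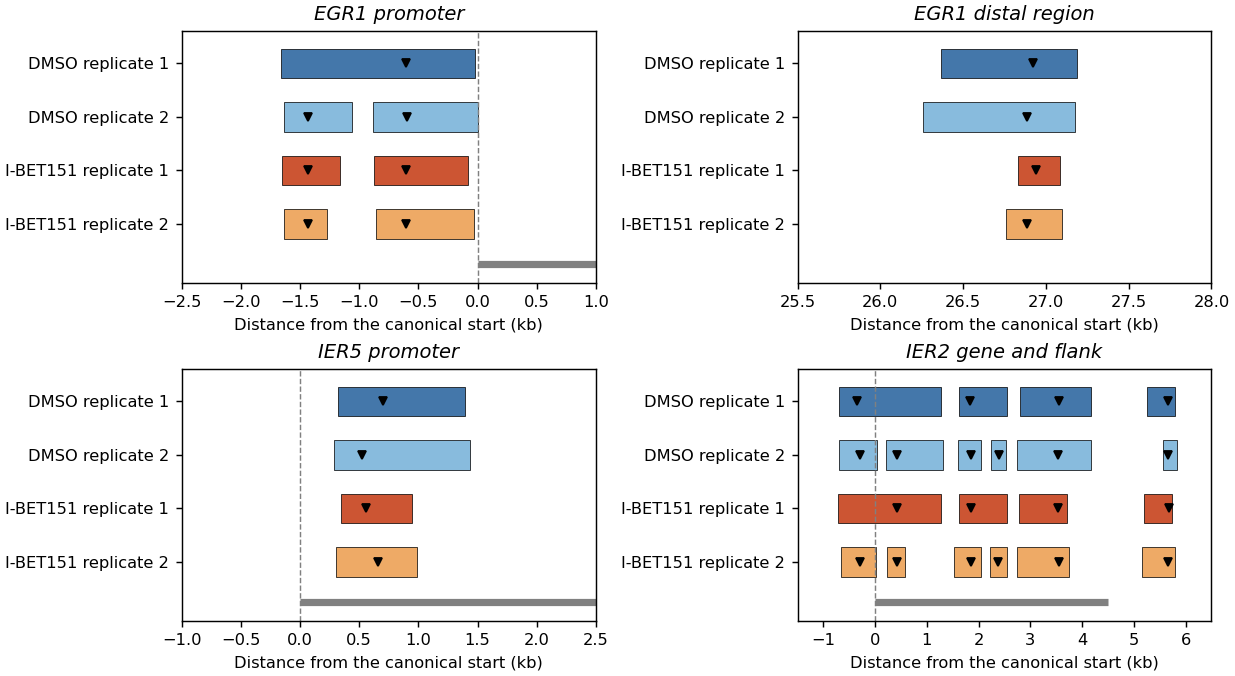
Peaks of each library drawn to scale as bars, with triangles at the summits, against distance from the canonical start in kb, in the direction of transcription; grey bars mark the gene body. At the distal EGR1 region and at IER5 the bars are shorter in both I-BET151 libraries, at IER5 on the downstream side only.

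At the EGR1 promoter the measures did not move together. Peaks covered 1639 and 1465 bp within 3 kb of the start in DMSO, against 1291 and 1190 bp in I-BET151, lower in both (a difference of −311.5 bp, and −119 bp within 1 kb). Summit reads were also lower, at 39.7 and 35.4 per M in DMSO and 28.4 and 30.6 in I-BET151. Fold over input went the other way, with 4.51 and 4.92 in DMSO and 5.13 and 6.88 in I-BET151.

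The local input level under the same summit was 84.9 and 75.5 times the genome-wide level in DMSO and 56.0 and 44.7 times in I-BET151. In input reads these levels were only 26 and 20 in DMSO and 16 and 11 in I-BET151, small counts that carry counting error into the fold. ChIP reads and input were thus both lower in I-BET151 at this promoter, and the fold is their ratio. The part of the input in the lower reads was not tested. The summit lay between −609 and −596 bp from the start in every library. The start of ENSG00000289267, a gene that is not protein-coding, lay closer, 194 bp from the strongest summit. A second summit between −1433 and −1430 bp was a separate peak in DMSO replicate 2 and in both I-BET151 libraries, while in DMSO replicate 1 a single peak of 1639 bp spanned both. On the 5′ side the peaks began between −1658 and −1633 bp in all libraries.

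**Figure D3:**
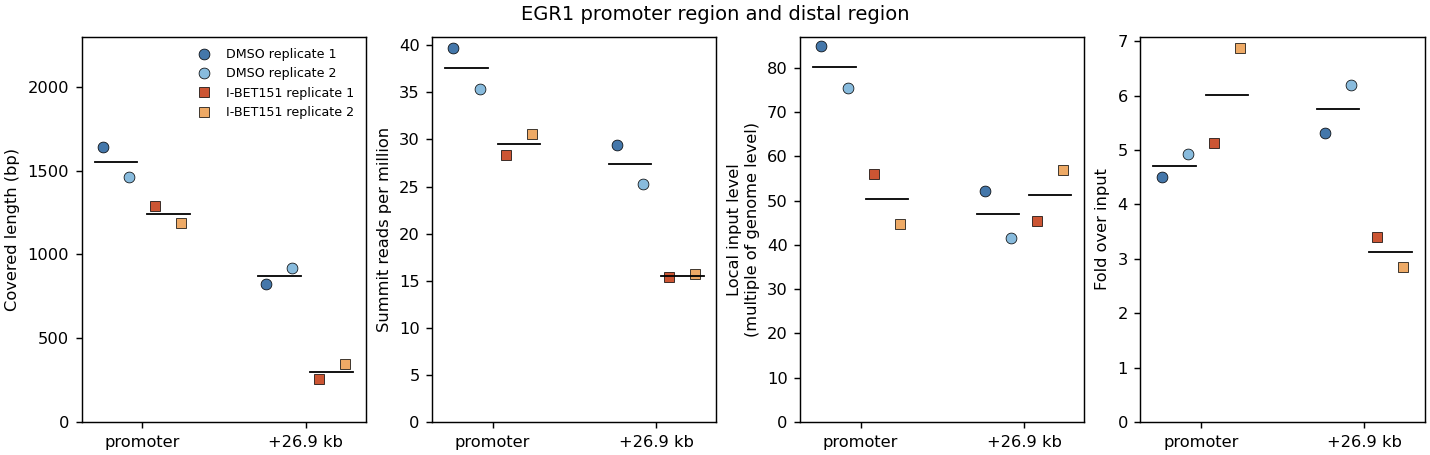
Covered length (bp), summit reads per M, local input level (multiples of the input's genome-wide level) and fold over input at the EGR1 promoter region and at the distal region 26921 bp downstream, with 1 point per library and a line at each group's mean. At the distal region reads and fold are both lower in I-BET151; at the promoter reads and input are lower and fold is higher.

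The CArG boxes of EGR1 lay in the 3′ part of this acetylated stretch. All 5 were whole inside a promoter peak of both DMSO libraries and of I-BET151 replicate 2. In I-BET151 replicate 1 the peak ended 78 bp before the start, inside the box nearest the start, and held the other 4 whole. In the other libraries that edge lay at −20, +3 and −33 bp.

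EGR2 (chr10:62811996-62819167, minus strand), a zinc finger factor needed for hindbrain segments and for myelination, had little acetylation of its own. Its window held 1.515 and 1.92 kb of cover in DMSO, against 1.791 and 1.75 kb in I-BET151, which overlapped. Most of it was a region at the promoter of ADO, which encodes a thiol dioxygenase, with 1515 and 1615 bp in DMSO, against 1509 and 1480 bp in I-BET151. At EGR2 itself the only region was chr10:62816434-62816748, whose summit lay 220 bp before the canonical start and inside an intron of longer EGR2 transcripts. It was 305 bp long in DMSO replicate 2, 282 and 270 bp in I-BET151, and not called in DMSO replicate 1. Its summit reads were close in the libraries that had it, at 15.2, 13.8 and 13.8 per M. The CArG box of EGR2 at −71 to −62 was not whole inside any peak. Another lay in the same region beyond the printed bases, 141 to 150 bases from the summit on the plus strand and inside all 3 peaks.

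EGR3, known from muscle spindles and T cells, and EGR4, known mostly from neurons, had no peak within 3 kb of their starts in any library. The only peak in the EGR3 window was at the promoter of BIN3, which encodes an N-BAR domain protein, starting 24359 bp downstream of the EGR3 start. It covered 0.384 and 0.331 kb in DMSO, against 0.255 and 0.338 kb in I-BET151, and the groups overlapped. Its summit reads did not overlap, at 20.2 and 20.8 per M in DMSO and 13.5 and 14.8 in I-BET151. EGR4 had no peak within 50 kb of the gene although 1 other protein-coding start, that of FBXO41, lay 9070 bp from its own.

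IER2 (chr19:13150411-13154911, plus strand), which encodes a nuclear protein induced by growth factors, had the most cover of the 7, above 98.2% of genes with a peak in their window by mean cover. Its window held 7.694 and 7.298 kb in DMSO, against 7.652 and 6.601 kb in I-BET151, and the groups overlapped. It contained 9 regions, all called in all 4 libraries. The locus is dense: STX10 starts at −36 bp on the other strand, so the promoter is shared, and TRMT1 and NACC1 start upstream, at −33671 and −32147 bp.

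Within 3 kb of the IER2 start, peaks covered 3092 and 2832 bp in DMSO, against 3147 and 2143 bp in I-BET151. I-BET151 replicate 2 was the lowest and replicate 1 the highest, so the treated libraries enclosed the controls. The strongest peak near the start was not the same one in each library: its summit lay at −352 and +430 bp in DMSO and at +1852 and +1851 bp in I-BET151. Its summit reads of 27.6 and 21.3 per M in DMSO and 30.4 and 30.2 in I-BET151 therefore compare different positions. At 1 position, the region with its summit near +1852 bp, they were 29.6 and 25.9 in DMSO and 30.4 and 30.2 in I-BET151, with fold at 5.36 and 6.40 against 8.98 and 7.99.

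Next to it, the region near +3534 bp at the 3′ end of IER2 was shorter in both I-BET151 libraries. It was covered over 1368 and 1425 bp in DMSO, against 937 and 995 bp in I-BET151, and 2.4% of regions called in all 4 libraries had a more negative difference. The difference of −430.5 bp became −899 bp with a −log10 q of at least 5 or with lists of equal length, which leave out the peak of I-BET151 replicate 1. The 5′ edge of its peaks stayed 2740 to 2807 bp from the IER2 start, and the 3′ edge lay at 4174 and 4164 bp in DMSO, against 3709 and 3738 bp in I-BET151. Its summit reads overlapped, at 20.2 and 24.7 per M in DMSO and 16.9 and 21.4 in I-BET151. The nearest start of any gene to its summit was that of ENSG00000267598, at 248 bp. For the region near +1852 bp it was that of ENSG00000287296, at 650 bp, and neither gene is protein-coding. The region at +5666 bp covered 532 and 272 bp in DMSO, against 534 and 640 bp in I-BET151, and this direction turned (−82 bp) when only peaks with a −log10 q of at least 5 were kept. Further downstream, at +17294 bp, cover was higher in both, with 374 and 301 bp in DMSO, against 466 and 411 bp in I-BET151. The region near +13633 bp kept its length (993, 953, 1023 and 924 bp) and had summit reads of 33.0 and 27.8 in DMSO and 39.3 and 37.2 in I-BET151.

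IER3 (chr6:30743199-30744548, minus strand) was the only one of the 7 with more cover in both I-BET151 libraries. Its window held 3.148 and 3.175 kb in DMSO, against 3.956 and 3.185 kb in I-BET151. The lower I-BET151 value exceeded the higher DMSO value by 0.01 kb, so the size of the difference rests on I-BET151 replicate 1, and without it the difference of 0.409 kb became 0.0235 kb. With flanks of 100 kb it was 0.126 kb. The promoter region itself, with its summit 197 bp after the start in coding sequence, covered 937 and 913 bp in DMSO, against 917 and 852 bp in I-BET151. Its summit reads were 28.3 and 29.2 per M in DMSO and 26.2 and 28.4 in I-BET151, which overlapped. Fold there ranged widely within each group, at 6.69 and 14.2 in DMSO and 16.1 and 8.51 in I-BET151.

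Other regions in the IER3 window lay at neighbouring promoters or upstream. FLOT1, encoding the membrane protein flotillin, starts 1860 bp downstream of the IER3 start, and its region covered 925 to 1005 bp in the 4 libraries. That region lies within 3 kb of the IER3 start, so it enters the promoter cover of IER3. This cover was 1942 and 1838 bp in DMSO, against 1903 and 1799 bp in I-BET151. MDC1, which encodes a DNA damage checkpoint mediator, had a promoter region of 409 bp in DMSO replicate 1 and 306 and 275 bp in I-BET151 that was not called in DMSO replicate 2. TUBB, a tubulin gene, had summit reads of 34.0 and 31.7 per M in DMSO and 45.0 and 42.5 in I-BET151. Covered length there overlapped, with 797 and 1063 bp in DMSO, against 1114 and 833 bp in I-BET151. So did fold, at 10.5 and 13.9 in DMSO and 12.5 and 14.3 in I-BET151. Upstream of IER3, in an intron of the noncoding gene HCG20, a region with its summit at −7937 bp (chr6:30752312-30752638) covered 274 bp in DMSO replicate 2, 325 and 278 bp in I-BET151, and was not called in DMSO replicate 1. Another at −5233 bp was called in I-BET151 replicate 1 only, over 308 bp. The −7937 peak stood at 89.2%, 53.2% and 88.4% of the ranked lists that held it. Both regions carry the AP-1 motif TGANTCA, the site of FOS and JUN dimers. It occurred in 2 of the 23 regions of these genes, against 3.69% of all 15752 regions. The centre of the −7937 region, chr6:30752384-30752584 on the plus strand of hg38, is shown with the AP-1 match in capitals.
IER3 upstream region: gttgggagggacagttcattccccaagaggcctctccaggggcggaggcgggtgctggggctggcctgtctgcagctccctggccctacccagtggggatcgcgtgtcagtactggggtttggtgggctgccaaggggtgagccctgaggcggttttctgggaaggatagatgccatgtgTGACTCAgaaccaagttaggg

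IER5 (chr1:181088700-181092900, plus strand) was lower in both I-BET151 libraries at its promoter. Its window held 2.184 and 2.098 kb in DMSO, against 1.774 and 1.684 kb in I-BET151, with means of 2.14 ± 0.0608 kb and 1.73 ± 0.0636 kb (SD, n = 2 each). The promoter region, chr1:181088988-181090133, accounted for the difference: it covered 1077 and 1146 bp in DMSO, against 598 and 679 bp in I-BET151, a ratio of 0.574. Among regions called in all 4 libraries, 1.92% had a more negative difference. The promoter difference of −473 bp was −60 bp when only 1 kb from the start was counted. It was −812.5 bp when only peaks with a −log10 q of at least 5 were kept, which leaves out the peak of I-BET151 replicate 2.

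The difference in length at IER5 was on 1 side. The 5′ edge of the peak lay 317 and 288 bp after the start in DMSO, against 348 and 307 bp in I-BET151, while the 3′ edge lay at 1393 and 1433 bp in DMSO, against 945 and 985 bp in I-BET151. Its fold was low throughout and overlapped between groups, at 2.55 and 3.79 in DMSO and 3.30 and 1.94 in I-BET151. The peak of I-BET151 replicate 2 was at the very end of its list, at 99.8%, with a −log10 q of 1.72. Summit reads were 19.3 per M in DMSO replicate 2 and 13.8 and 14.9 in I-BET151, and could not be worked out in DMSO replicate 1. The other regions of IER5 were intergenic, at +16334 and +46422 bp. At +16334 bp peaks covered 573 and 533 bp in DMSO, against 599 and 613 bp in I-BET151. At +46422 bp the groups overlapped, with 534 and 419 bp in DMSO, against 577 and 392 bp in I-BET151.

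Set side by side within 3 kb of the start, EGR1 and IER5 were lower in both I-BET151 libraries and none of the 5 members with cover there was higher. Over all 10761 promoters with cover, 36.2% were lower and 14% higher. For the fold of the strongest promoter peak, 1 of 4 members (EGR1) was higher and 0 lower, against 24.6% higher and 15.8% lower of 8907 promoters. For its summit reads, 1 of 3 (EGR1) was lower and 1 (IER2) higher, against 30.2% and 26.3% of 8455. The IER2 value turned negative, to −0.36 on the log2 scale, when summits within 1 kb were taken. The strongest IER3 peak also changed place. It lay at +1999 bp in DMSO replicate 1 and +1992 bp in I-BET151 replicate 2, in the FLOT1 region. In DMSO replicate 2 and I-BET151 replicate 1 it lay at +195 and +197 bp. The IER3 fold and summit reads in these counts therefore compare different positions.

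The 7 windows held 23 regions in all, of which 7 lay within 3 kb of a member's start, 6 at the promoter of another gene and 10 elsewhere. The FLOT1 region, 139 bp from the FLOT1 start, was counted with the 7 because it also lies within 3 kb of the IER3 start. None (0) was lost, meaning present in both DMSO lists but in no I-BET151 list, and none was gained. Over all 15752 regions 8.6% were lost and 2.81% gained. Of the 23 regions, 19 were called in all 4 libraries, or 82.6%, against 65.5% of all regions. In covered length 5 of the 19 were lower in both I-BET151 libraries and 3 higher, against 33.3% and 16% of 10317. In fold 3 were lower and 4 higher, against 16.4% and 25.4%. In summit reads, resolved for 18, 3 were lower and 5 higher, against 30.8% and 30.1%.

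Among other motifs, the EGR element GCGNGGGCG, searched on both strands within 150 bp of the summit, occurred in 7 of the 23 regions, against 12.9% of all regions. One of them was the EGR1 promoter region, with 2 overlapping matches at its summit. The ETS core CCGGAA occurred in 8, against 17.2%, and the GC box GGGCGG in 18, against 64.8%. The CArG box occurred in 1 of the 23 (the EGR2 promoter region), against 0.476% of all regions. The cyclic AMP response element TGACGTCA occurred in 0, against 0.502%, the TATA box TATAAA in 0, against 1.17%, and the NF-kB site in 5, against 20.3%. The EGR element and the GC box share letters, so 1 stretch can match both. In the printed EGR1 distal promoter ETS cores lay at −427 to −422, −390 to −385 and −330 to −325, among the 3 CArG boxes. A match is a string of letters in these windows and does not show that a factor was bound.

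Genes that act upstream of the EGR and IER genes, repress their products or are induced beside them were taken as a list of 31 genes. Of these, 30 had a peak in their window, and cover was lower in both I-BET151 libraries for 19, or 63.3%, and higher in both for 2, or 6.67%, beside the 44.4% and 12.5% of all genes given above. The median difference was −0.43 kb. Among other immediate early genes 13 of 20 were lower. Among upstream kinases and factors 6 of 8 with peaks were lower. Neither of the EGR corepressors NAB1 and NAB2 was separated. The list was chosen with results of these data known.

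JUNB, an AP-1 subunit, stood out, with 5.333 and 6.713 kb in DMSO, against 1.793 and 2.043 kb in I-BET151. JUND, another AP-1 subunit, had 6.893 and 7.124 kb against 4.903 and 4.717 kb. ZFP36, which destabilises cytokine mRNAs, had 8.119 and 7.713 kb against 6.408 and 5.5 kb. FOSL1, a FOS family member, had 6.338 and 6.553 kb in DMSO, against 5.102 and 4.301 kb in I-BET151. At each of these genes the groups differed by more than the spread between replicates, as at some other listed genes, among them MAPK3. Values of the listed genes, here and below, are for the gene and its 50 kb flanks. They were not split between each gene and its neighbours. JUNB, JUND and ZFP36 had a peak summit within 3 kb of their start in 4 libraries, and FOSL1 in 3.

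MAPK3, which encodes ERK1, had 4.78 and 4.695 kb in DMSO, against 3.317 and 3.597 kb in I-BET151. PHLDA1, a growth-factor-induced pleckstrin-like gene, was higher in both I-BET151 libraries, with 2.073 and 2.266 kb in DMSO, against 2.384 and 2.338 kb in I-BET151. SRF, whose protein binds the CArG boxes, had 2.56 and 2.477 kb in DMSO, against 1.619 and 2.103 kb in I-BET151 and was among the lower genes. FOS, the founding AP-1 subunit, had 1.981 and 2.993 kb against 2.327 and 1.982 kb, and its groups overlapped.

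**Figure D4:**
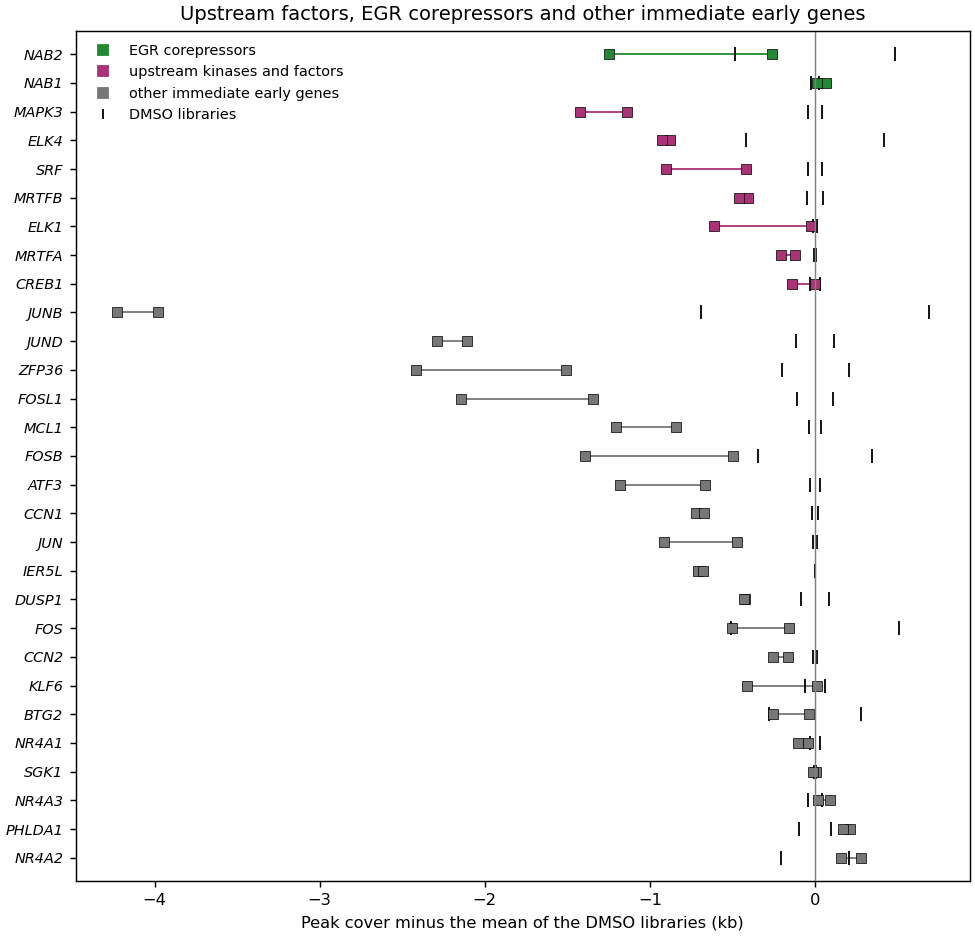
H3K27ac peak cover over the gene and its 50 kb flanks for 29 of the 30 listed genes with a peak, as the difference in kb from the mean of the DMSO libraries; squares are I-BET151 libraries and ticks are DMSO libraries. JUNB lies farthest to the left, and at PHLDA1 both I-BET151 libraries lie to the right of both DMSO libraries.

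By the summed absolute difference in cover over the 4 libraries, the protein-coding gene on another chromosome with the pattern most like EGR1 was CDKN1A, which encodes the cell cycle inhibitor p21, at 0.196 kb. CDKN1A had 2.436 and 2.347 kb in DMSO, against 1.595 and 1.447 kb in I-BET151. For IER5 it was ALOXE3, a lipoxygenase gene, at 0.191 kb, and for EGR3 FGF1, a fibroblast growth factor, at 0.062 kb. For IER2 it was PTMA, encoding prothymosin alpha, at 0.536 kb, and for IER3 the zinc finger gene ZNF444 at 0.504 kb. For EGR2 it was the gene ENSG00000288674 at 0.173 kb. With 4 libraries many genes share any such pattern, and the likeness is a description only.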

How the data were processed

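H3K27ac ChIP-seq was analysed in 2 DMSO and 2 I-BET151 libraries, grouped by the library titles. Per the study's methods and the submitters' processing notes, the authors aligned reads to hg38 with Bowtie2 2.2.5, removed duplicate and mitochondrial reads, and called peaks per library with MACS2 2.1.2. For each peak the deposited lists give the fold at the summit over local input (a linear ratio), −log10 p and −log10 q values, the summit's distance from the peak's start, and a score that the authors' caller derives from −log10 q and that was not used. Duplicate removal limits how high a peak can be, and the threshold leaves out weak acetylation.

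ChIP reads and local input levels at summits were worked out from the fold (pseudocount of 1) and the Poisson p-value. Where only 1 solution existed, it was a whole read number within 0.05 for 100% of peaks, and 96.1 to 97.6% of peaks were resolved. Reads were divided by the ChIP depth, which fold and p-value give only relative to the input depth. The lowest local input level of each list was taken as its genome-wide level. Input depth followed from this level, a genome of 2700000000 bp and the narrowest peak as the fragment length. That width was 272 bp in DMSO replicate 1 and 247 to 254 bp in the other libraries. A larger width gives a lower depth and more reads per M. Neither assumption was tested. Summit reads carry counting error, and fold also carries that of the input, at a depth of 2.67 to 3.04 M reads.

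Covered length was taken over the gene body and 50 kb either side and within 3 kb of the canonical start. Peaks sharing at least 1 bp were merged into regions. Groups were said to differ in direction where both I-BET151 values lay on the same side of both DMSO values. The share of all genes, promoters or regions that did so is given beside the counts of the main setting. For a single value the exact permutation test was used, two-sided. Differences are I-BET151 minus DMSO. The functions were tested on simulated lists.

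All 7 genes are named. From the list of related genes, those whose groups did not overlap are named up to the 5 largest differences in each direction. The values of 1 listed gene are not reported here, though it enters the counts. SRF and FOS were named after their values were seen. For each member the 1 gene on another chromosome with the most similar cover is named. Neighbouring genes are named where a peak lay within 3 kb of their start. The members and lists were chosen with earlier results of these data known. Of the 7 genes, 5 matched a RefSeq promoter entry at the canonical start. The deposited lists use hg38, 0 peaks ran past a chromosome end, and summits within 3 kb of a canonical start made up 73.9 to 79.2% of each list. Alternatives were other windows, stricter or equally long lists, other ways of merging regions, rescaling, leaving out each library and pairing by replicate number. Python 3.11.15, numpy 2.4.6, pandas 2.3.3, scipy 1.17.1 and matplotlib 3.10.9 were used. Inputs were not analysed here as separate samples.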

Additional observations from a re-analysis of the deposited data

How the results depend on the processing

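Over 406 alternative values of 48 results, 26 moved by more than the spread between replicates or by over 1.5 times in a count, and 3 changed direction where the groups had not overlapped. Another 36 values changed sign where the groups overlapped, mostly for promoter fold and summit reads and for IER2 and IER3, so no direction is given for those. Summit reads of the strongest IER2 peak changed sign with a 1 kb promoter (log2 difference −0.36), where summits farther away do not enter. The region at +5666 bp of IER2 went from longer to shorter (−82 bp) with −log10 q of at least 5 and with the 12312 top-ranked peaks of each list, since the peak of I-BET151 replicate 1 there dropped out. The mean log2 difference in promoter summit reads was −0.03 and became −0.26 within 1 kb. Windows of 100 kb gave 1 lost and 1 gained region, requiring peaks over 50% of a region gave 1 lost, and equal lists gave 1 gained. Leaving out each library in turn gave 0 to 2 gained regions (2 without DMSO replicate 2) and 2 to 5 listed genes higher (5 without DMSO replicate 1 or I-BET151 replicate 2). Leaving out a library makes the rule easier to meet. For these alternatives no share over all regions was worked out, and a share over all genes only for the stricter and equal lists. Equal lists gave 4 listed genes higher and 15 lower, beside 15.4% of all genes higher and 38.3% lower.

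Same-numbered replicates did not deviate together (correlation 0.0118 over regions), so the numbers were not taken to pair the libraries. With the replicate number as a block, 5 listed genes were higher and 21 lower, and the mean differences are the same by construction. The block is also a looser rule, and its share over all genes was not worked out. EGR1 and IER5 kept less cover in I-BET151 under every alternative run, at −0.311 to −0.996 kb and −0.367 to −0.752 kb. At the depths given, regions near the threshold, such as those upstream of IER3, can drop in or out of a list by counting error.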
